A study of Caenorhabditis elegans with 2 samples.

Results

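The axon guidance genes described here are 10 genes of Caenorhabditis elegans, unc-5, unc-6, unc-40, unc-44, unc-115, unc-34, unc-73, sax-3, slt-1 and vab-1, out of 19973 protein-coding genes in the annotation. They were chosen by name, and a region was counted for a gene when its summit, the position of highest signal, lay from 2 kb upstream of the gene to its 3' end. The deposited lists describe where the RUNX-type transcription factor RNT-1 was found on DNA by chromatin immunoprecipitation and sequencing (ChIP-seq). Both samples were whole L1 hermaphrodites of strain OP462, which carries unc-119(tm4063) on chromosome III and the integrated transgene wgIs462, expressing RNT-1 with a GFP-FLAG tag at its C-terminus. The larvae had been starved after bleaching and were collected 6 h after synchronization. Chromatin was recovered through the GFP part of the tag. The 2 biological replicates form 1 group, and no untreated or control library was analysed here, so the values below are compared between genes, between regions and between replicates.

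In the worm, as in other animals, growing axons are steered by secreted cues and the receptors that read them. Netrin (UNC-6) is laid down ventrally and attracts axons through UNC-40 or repels them through UNC-5. Slit (SLT-1) repels axons through the Robo receptor SAX-3, and the Eph receptor VAB-1 binds ephrins on neighbouring cells. Inside the growth cone, UNC-34, UNC-73 and UNC-115 act on the actin cytoskeleton, and UNC-44 is an ankyrin that anchors membrane proteins in axons. RNT-1 itself is best known for its part in the divisions of epidermal seam cells. The material was whole animals, so binding in neurons cannot be told from binding in other tissues, nor few cells with strong binding from many cells with weak binding.

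The sequences at the strongest peaks show what lay under the summits. Each is 101 bases centred on a summit, read on the strand of the gene from the ce11 genome, with the RUNX core words TGTGGT and TGCGGT in capitals on either strand. The first 7 are the strongest peaks of 7 genes, and the last 2 are further peaks of unc-115 beside transfer RNA genes. Sequences of unc-40 and unc-73 are not printed here, and unc-34 had no region.
unc-6 intron, chrX:6894183-6894283, plus strand: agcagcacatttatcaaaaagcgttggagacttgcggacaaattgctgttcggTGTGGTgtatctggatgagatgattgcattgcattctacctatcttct
slt-1 upstream, chrX:14673975-14674075, plus strand: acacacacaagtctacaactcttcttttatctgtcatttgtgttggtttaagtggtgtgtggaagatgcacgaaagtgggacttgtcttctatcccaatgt
unc-5 intron, chrIV:5507921-5508021, minus strand: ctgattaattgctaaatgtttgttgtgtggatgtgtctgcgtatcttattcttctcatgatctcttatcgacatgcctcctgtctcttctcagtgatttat
sax-3 intron, chrX:3455697-3455797, minus strand: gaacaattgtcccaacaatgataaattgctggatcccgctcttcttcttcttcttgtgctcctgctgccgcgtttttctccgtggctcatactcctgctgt
vab-1 upstream, chrII:4571244-4571344, plus strand: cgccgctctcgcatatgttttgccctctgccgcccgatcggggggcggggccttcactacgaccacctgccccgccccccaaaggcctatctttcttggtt
unc-115 upstream, chrX:10146765-10146865, plus strand: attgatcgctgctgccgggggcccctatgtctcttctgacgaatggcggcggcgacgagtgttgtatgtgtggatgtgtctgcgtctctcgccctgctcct
unc-44 upstream, chrIV:5974158-5974258, plus strand: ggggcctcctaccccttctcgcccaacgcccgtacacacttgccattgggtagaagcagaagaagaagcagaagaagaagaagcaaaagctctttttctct
unc-115 upstream beside a tRNA gene, chrX:10145088-10145188, plus strand: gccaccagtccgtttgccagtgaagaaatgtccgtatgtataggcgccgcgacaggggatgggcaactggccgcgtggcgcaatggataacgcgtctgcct
unc-115 intron beside a tRNA gene, chrX:10148684-10148784, plus strand: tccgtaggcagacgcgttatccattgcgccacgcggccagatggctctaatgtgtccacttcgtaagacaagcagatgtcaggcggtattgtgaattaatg
Of these 9 windows, the one at unc-6 alone holds a RUNX core word, TGTGGT, which begins 3 bases after the summit.

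RNT-1 peaks were found at 9 of the 10 genes, with 21 peaks in all. A peak here is a region of the authors' optimal list, which holds 5560 regions with a threshold on IDR, the irreproducible discovery rate, a measure of how far regions rank alike in replicates. Of all protein-coding genes, 24.4% had a peak by the same rule. The 10 genes are long, from 6.3 kb for unc-115 to 32.7 kb for unc-5, with a median of 14.1 kb against 2.03 kb for all protein-coding genes, and a longer gene can hold more summits. Among protein-coding genes of at least 5 kb, with a median of 7.72 kb, 38.0% had a peak. Of the 998 genes of at least 10 kb, with a median of 13.9 kb, 44.4% had one. The gene without one was unc-34, whose product is the worm homologue of Enabled.

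The count of peaks differed widely among the 10 genes. The Trio homologue gene unc-73 had 7 peaks, unc-115 had 3, and unc-40, slt-1, vab-1 and unc-44 had 2 each. One peak each was found at unc-5, unc-6 and sax-3. In the 5560 strongest regions of a single replicate, unc-40 had 1 in replicate 1 and 3 in replicate 2, slt-1 had 2 and 1, and vab-1 had 2 and 0. Of protein-coding genes of at least 5 kb, 6.00% had 3 or more peaks and 0.526% had as many as unc-73 or more. The unc-73 gene is 32.4 kb long, and 92.0% of genes of at least 5 kb had fewer peaks per 10 kb of window. Per length, unc-115 was the most densely covered, with 3.64 peaks per 10 kb of window, followed by unc-73 with 2.03, slt-1 with 1.82 and unc-40 with 1.46. Without the peaks beside transfer RNA genes, described further on, unc-115 had 1.21 per 10 kb and stood below these 3. The order of slt-1 and unc-40 also differs between the replicates. The other genes with a peak lay between 0.288 per 10 kb at unc-5 and 1.06 at unc-6. Over all 10 windows together there were 1.07 peaks per 10 kb, against 0.552 over all genes of at least 5 kb.

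The wider list of candidates from the pooled replicates holds 30000 regions, a fixed number, so that it reaches into background. It held 106 regions at the 10 genes, 85 of them below the threshold of the optimal list. Candidates numbered 26 at unc-73, 21 at unc-44, 16 at vab-1, 12 at sax-3, 11 at unc-40, 8 at unc-6, 6 at slt-1 and 5 at unc-115. These 8 genes held 5.46 to 8.44 candidates per 10 kb, a density that 78.6 to 94.6% of genes of at least 5 kb did not exceed. The remaining pair stood at the other end: unc-5 had 1 candidate in a window of 34675 bp, and unc-34 had none in 16209 bp. A candidate was found at 74.5% of genes of at least 5 kb. Of 800 genes from 10 to 20 kb, the range that holds unc-34, 27.6% had none.

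**Figure D1:**
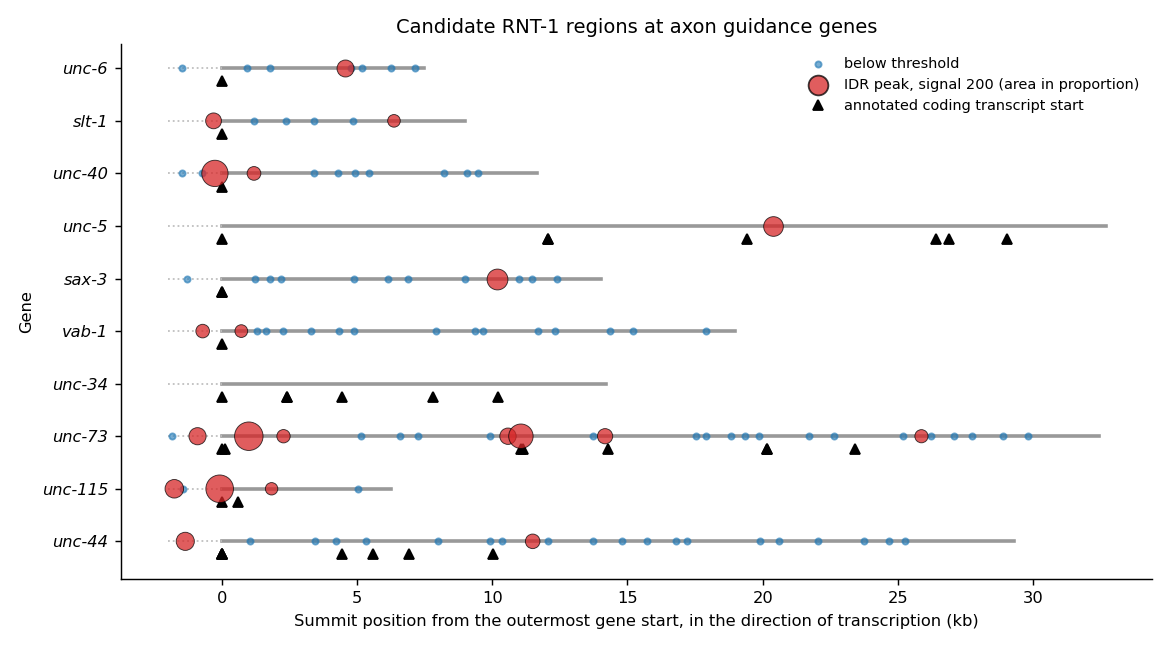
Position of every pooled candidate region at the 10 genes, in kb from the outermost annotated start of each gene in the direction of transcription. Red circles are the 21 peaks of the optimal list, with area in proportion to signal, blue dots are the 85 regions below its threshold, grey lines are gene bodies and triangles are coding transcript starts. Regions are spread along 8 genes, while unc-5 has 1 and unc-34 has none.

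**Figure D2:**
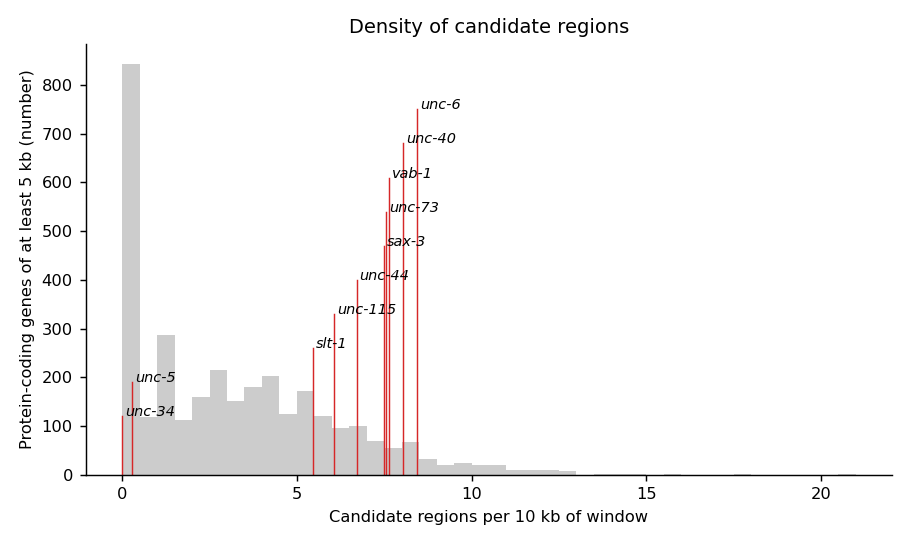
Number of protein-coding genes of at least 5 kb (grey bars) by candidate regions per 10 kb of window, with the 10 axon guidance genes as labelled red lines. Line heights are staggered for reading and carry no value. The lines of unc-34 and unc-5 lie at 0 and 0.288, and the other 8 between 5.46 and 8.44.

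Among the ligands, the netrin gene unc-6 had its peak inside the gene. The peak (chrX:6894188-6894280) had a pooled signal of 148, in the unit of the authors' caller (scale: not given in the sources used here). Its summit lay 4559 bp downstream of the start, in intron 7 of 12, which is 2070 bp long. Replicate 2 gave 83.2 there. Replicate 1 had no region over that summit, but its strongest region at unc-6, with a signal of 83.0, had its summit 4723 bp from the start, and that of replicate 2 lay at 4543 bp. A pooled candidate 4764 bp from the start had a signal of 70.4 and fell just short of the optimal list, whose weakest peak had 71.6. The replicates thus each had a region of nearly equal signal, with summits at different places. Upstream of unc-6 the strongest candidate had a signal of 53.5, at 1479 bp from the start.

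The Slit gene slt-1 had a peak on either side of its start. The stronger one (chrX:14673917-14674132, signal 128) had its summit 303 bp upstream of the start, and the weaker one (chrX:14680587-14680802, signal 81.6) lay 6367 bp downstream, in intron 22 of 31. The start of csq-1, 4182 bp away, was nearer to the weaker summit than that of slt-1. At the upstream peak replicate 2 gave 96.7 and replicate 1 had no region over the summit. The nearest region of replicate 1 had a signal of 45.3 and its summit at 140 bp upstream. At the intronic peak replicate 1 gave 49.0 and replicate 2 gave 25.9, a mean of 37.4 ± 16.3 (SD, n = 2). Neither slt-1 peak was among the 5560 strongest regions of both replicates.

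Of the receptor genes, unc-40, which encodes the worm DCC, had the strongest peak (chrI:5691724-5691807, signal 354). Its summit lay 253 bp upstream of the start of unc-40 and 508 bp upstream of the start of npp-7, a nucleoporin gene on the opposite strand, so it lies between the starts of both genes. Replicate 1 gave 253 and replicate 2 gave 103, a mean of 178 ± 106 (SD, n = 2), the widest absolute spread of the 19 peaks measured in both replicates. A weaker peak (chrI:5690204-5690419, signal 96.4) lay 1191 bp inside unc-40, in intron 2 of 16. There replicate 2 was the higher, with 59.4 against 41.3.

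The repulsive netrin receptor gene unc-5 had a peak deep inside the gene (chrIV:5507863-5508078, signal 198), 20367 bp from the outermost start. It fell in an intron of 6762 bp, intron 3 of 8 in the longest transcript. The nearest annotated start of unc-5 was that of transcript B0273.4d.1, 932 bp upstream of the summit, which gives a protein of 811 residues against 947 for the longest. Replicate 1 gave 94.3 and replicate 2 gave 103, a mean of 98.7 ± 6.24 (SD, n = 2). The region thus had close values in both replicates, in a gene with almost no other candidate. Elsewhere at unc-5, replicate 1 had weak regions of 16.7 and 16.4, near the end of its list at 14.8, and replicate 2 had none.

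The Robo gene sax-3 likewise had 1 peak, inside the gene (chrX:3455694-3455800, signal 222), in intron 5 of 11, which spans 5870 bp. Its summit was 10180 bp from the start of sax-3, and the nearest start of any protein-coding gene was that of ZK813.5, 4525 bp away. Replicate 1 gave 96.2 and replicate 2 gave 129.05, a mean of 113 ± 23.2 (SD, n = 2). Around it were 11 candidates below the threshold, the strongest with 60.7. No region of the optimal list lay in the 2 kb upstream of sax-3.

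At the Eph receptor gene vab-1 the peaks were weak and rested on replicate 1. One (chrII:4571186-4571401, signal 94.7) lay 706 bp upstream of the start and the other (chrII:4572614-4572829, signal 83.0) 722 bp downstream of it, in intron 1. The upstream peak had 70.8 in replicate 1 and 33.1 in replicate 2, a mean of 52.0 ± 26.7 (SD, n = 2). The intronic one had 58.8 and 20.4, a mean of 39.6 ± 27.1 (SD, n = 2). Replicate 1 was thus more than 2-fold higher at both. Among the 5560 strongest regions of replicate 2 alone, none lay at vab-1.

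The gene of the Enabled homologue, unc-34, on chromosome V, had no region in any of the 4 lists between 2 kb upstream of its start and its 3' end. The nearest pooled candidate, with a signal of 46.4, lay 4275 bp upstream of the start, and replicates 1 and 2 had 26.6 and 19.0 there. The nearest peak of the optimal list lay 7297 bp upstream, with a signal of 108, and on the other side none was found before 63458 bp past the 3' end. The candidate lists end at a fixed number of regions, with weakest signals of 26.1 in the pooled list, 14.8 in replicate 1 and 15.5 in replicate 2. The lack of a listed region at unc-34 is thus not a measured 0.

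By contrast, unc-73, the Trio homologue gene, carried the strongest peak of the 10 genes. That peak (chrI:4030668-4030830, signal 415) lay 1000 bp inside the gene, in an intron of 2378 bp that is the first of 31 in the longest transcript. Replicate 1 gave 208 and replicate 2 gave 208, a mean of 208 ± 0.482 (SD, n = 2). It was rank 893 of 5560. Another peak in the same intron (signal 91.2, at 2283 bp) had 70.99 and 32.0, and one 896 bp upstream of the gene (signal 150.7) had 94.5 and 56.4.

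A second group of unc-73 peaks lay at starts of shorter transcripts inside the gene, all in intron 17, of 4257 bp. The strongest of them (chrI:4020624-4020750, signal 306) had its summit 15 bp upstream of the start of F55C7.7g.1 and close to that of F55C7.7c.1, which give proteins of 638 and 928 residues against 2488 for the longest form. Replicate 1 gave 170 and replicate 2 gave 134, a mean of 152 ± 25.4 (SD, n = 2). A neighbouring peak (signal 137) lay 493 bp upstream of the same start and had 53.5 and 91.0. The other (chrI:4017459-4017674, signal 118.7) lay 91 bp upstream of the start of F55C7.7f.1, which gives 967 residues, and had 53.5 and 63.3, a mean of 58.4 ± 6.94 (SD, n = 2). Of the 7 unc-73 peaks, 3 thus lay within 500 bp upstream of an internal start and 1 upstream of the whole gene. The last (signal 88.9, at 25868 bp) lay in intron 20 but within an exon of F55C7.2, a gene on the opposite strand, 436 bp from the start of that gene. Replicate 1 gave 68.8 and replicate 2 gave 30.1 there.

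At unc-115, which encodes an actin-binding protein of the abLIM family, the strongest peak sat at the promoter (chrX:10146745-10146882, signal 390). Its summit was 77 bp upstream of the gene start, with 224 in replicate 1 and 180 in replicate 2, a mean of 202 ± 31.2 (SD, n = 2). The other peaks lay beside genes for arginine transfer RNA, short genes transcribed by RNA polymerase III. One (signal 176), 1754 bp upstream of unc-115, had its summit 18 bp from F09B9.t1, and the other (signal 78.9), in intron 1 of F09B9.2b.1, had its summit 13 bp from F09B9.t2. Both summits were on the 5' side of the transfer RNA gene. The first had 81.4 and 104 in replicates 1 and 2, and the second had 16.6 and 41.4, so that replicate 2 was 2.50 times replicate 1 there. That value of replicate 1 is near the end of its list at 14.8. Its region had its summit 1742 bp from the gene start, against 1842 bp for the pooled peak.

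The 2 transfer RNA genes are copies of each other, both 73 bp long. Identical sequences are found at 10 genes in all, of which 7 had a peak within 250 bp, these 2 included. The share of all transfer RNA genes with a peak that near was not counted. Reads from within the shared sequence cannot be told apart between copies, and the authors' placing of such reads is not known here. Over the optimal list, 4.78% of summits lay within 250 bp of a transfer RNA gene, against 2 of the 21 (9.52%) at the axon guidance genes. At slt-1, a candidate below the threshold (signal 64.5) had its summit inside an isoleucine transfer RNA gene in an intron, with 36.8 and 23.4 in replicates 1 and 2.

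The ankyrin gene unc-44 had a peak 1349 bp upstream of its start (chrIV:5974160-5974232, signal 168) and another 11495 bp inside (chrIV:5986944-5987159, signal 109). The upstream peak had 81.6 and 95.4 in replicates 1 and 2, a mean of 88.5 ± 9.75 (SD, n = 2). The inner peak had 36.3 and 72.8, a mean of 54.6 ± 25.8 (SD, n = 2), so replicate 2 was 2.00 times replicate 1. The summits of these replicate regions lay apart, at 11397 bp in replicate 1 and 11500 bp in replicate 2. Both summits fell inside annotated noncoding RNA genes, B0350.67 and B0350.84 upstream and B0350.74 and B0350.83 in the intron. The unc-6 summit also did, in F41C6.11, which makes 3 of 21 summits (14.3%), against 9.98% over the optimal list. A candidate just below the threshold (signal 68.2) lay 9903 bp inside unc-44, upstream of the start of transcript B0350.2a.1 at 10028 bp.

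**Figure D3:**
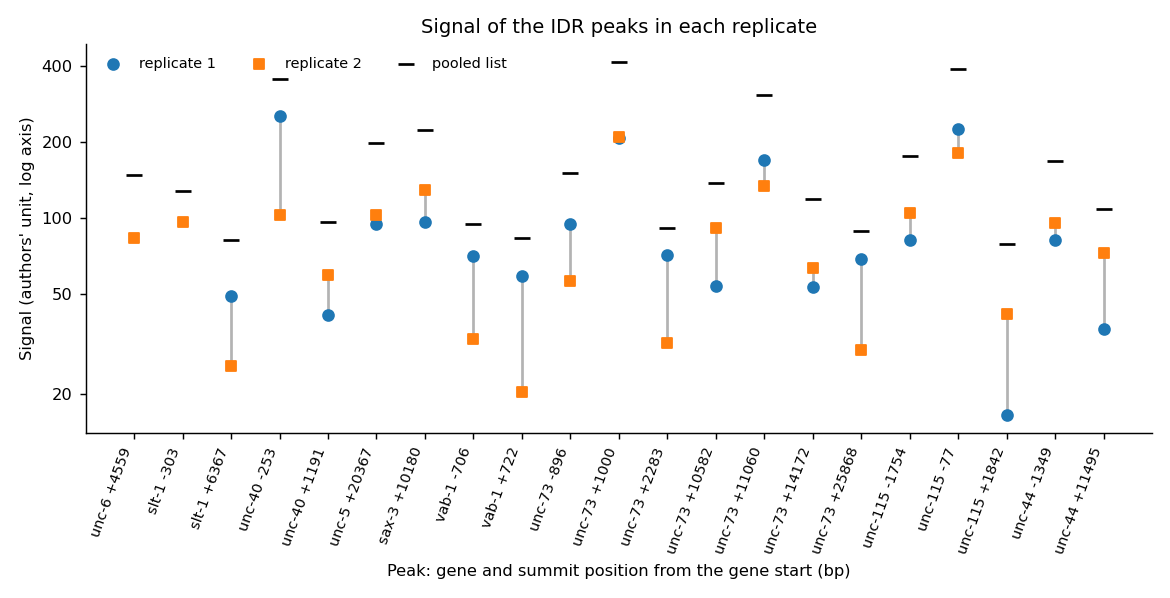
Signal of each of the 21 peaks in replicate 1 (blue circles), replicate 2 (orange squares) and the pooled list (black bars), on a log axis in the unit of the authors' caller, labelled by gene and summit position in bp from the gene start. The replicates nearly coincide at the unc-73 peak at 1000 bp and stand furthest apart in ratio at the vab-1 peak at 722 bp. Replicate 1 has no matching region at unc-6 and at the upstream slt-1 peak.

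Across the 21 peaks the pooled signal ranged from 78.9 to 415 with a median of 137, below the median of 174 over the whole optimal list. Of the 21, 7 were among the 2780 strongest peaks, at unc-73, unc-115, unc-40, sax-3 and unc-5, and 2 were among the 1112 strongest. The replicates gave a signal at 19 of the peaks, and replicate 2 was the higher at 10 of these. Over all peaks matched in both replicates, replicate 2 was the higher at 1791 of 5282. The median coefficient of variation at the 19 peaks was 35.8%, ranging from 0.232% to 68.4%, against 15.6% over all matched peaks. At 7 of the 19 the replicates differed more than 2-fold, compared with 8.01% of all matched peaks. Weak peaks vary more throughout the list. Among peaks outside the 2780 strongest the median was 45.4% for 12 peaks of the axon guidance genes and 21.6% for all, and among the strongest 2780 it was 16.7% for 7 and 11.6% for all. Of the 21 peaks, 11 ranked within the first 5560 regions in both replicates, which was the case for 76.7% of the optimal list. These 11 peaks belonged to unc-73 (5), unc-115 (2), unc-40, unc-5, sax-3 and unc-44.

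By position, peaks lay upstream of the genes and in introns, and none lay in a coding exon of the 10 genes. Over the optimal list as a whole 3.58% of summits lay in a coding exon of any gene, and by that count the 10 genes had 1 of 21 (4.76%), the one in F55C7.2. Upstream sequence held 7 peaks in 20 kb, or 3.50 per 10 kb, and introns held 14 in 113.6 kb, or 1.23 per 10 kb. Coding exons, 53.4 kb or 27.3% of the windows, held none. Candidates below the threshold were spread otherwise, with 6.55 per 10 kb in coding exons, 3.70 in introns and 3.0 upstream. This too holds for the whole list, in which 44.3% of regions below the threshold lay in a coding exon, against 42.4% of the 85 at these genes. Of the 14 intronic peaks, 12 were in introns longer than 1 kb, and 4 were in the first intron of the longest transcript. Not counting the unc-73 peak that lies in an exon of F55C7.2, 13 of 21 summits (61.9%) were intronic. That share was 25.1% over the optimal list and 50.5% over peaks in the windows of genes of at least 5 kb. The median distance from a peak to the nearest annotated start of its own gene was 932 bp, and 11 of the 21 peaks lay within 1000 bp. For intron length, first introns and distance to a start, the same values over the optimal list were not computed. Nor were the share of peaks upstream of genes and the peaks per 10 kb of each class. The median GC content of the 101 bases at these summits was 51.5%, against 46.5% over the optimal list.

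**Figure D4:**
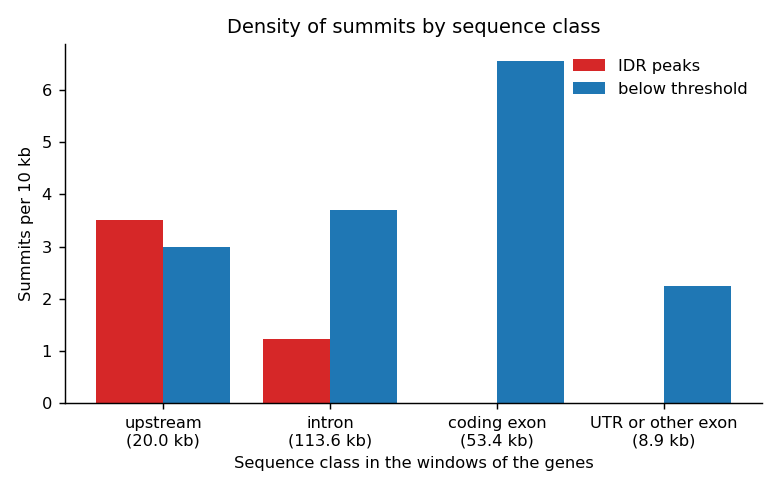
Summits per 10 kb of each class of sequence in the windows of the 10 genes, for peaks of the optimal list (red) and regions below its threshold (blue), with the length of each class in kb. Peaks are densest upstream, at 3.50 per 10 kb, and absent from coding exons, where regions below the threshold are densest, at 6.55. Over the whole lists, 3.58% of peaks and 44.3% of regions below the threshold lie in coding exons. Densities by class over the whole lists were not computed.

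The RUNX core was found near few of these summits. TGTGGT or TGCGGT, searched on both strands within 50 bp of the summit, was found at 2 of 21 peaks (9.52%), against 10.1% of the optimal list. The peaks were those in introns of unc-6 and unc-40, and both held TGTGGT. Among the 85 candidates below the threshold it was found at 13 (15.3%), against 7.06% of all such regions. Within 100 bp the numbers were 3 of 21 (14.3%) and 16.4%. The word GAGAGA, a purine repeat, was present at 7 of 21 peaks (33.3%), including the strongest at unc-73, unc-40 and unc-115, against 29.8% of the list. The word TGATAA, a form of the GATA factor site, was present at 3, at unc-6, sax-3 and vab-1, against 5.47%. These shares are descriptions of letters near summits, and with 21 peaks they are coarse. The exact Clopper-Pearson 95% interval of the share with a RUNX core was 1.17 to 30.4%, for counting error only.

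Some stretches recurred between windows. The printed windows were compared together with those of the weaker peaks of slt-1, vab-1 and unc-44, and without unc-40 and unc-73. Over all 66 pairs of the 12 windows compared, the longest run in common had a median of 7 bases. The longest, 35 bases on opposite strands, joined the peaks of unc-115 beside the transfer RNA genes and is mostly sequence of those genes. Next came 19 bases shared by the unc-5 peak and the unc-115 promoter peak, in the same direction relative to each gene: tgtgtggatgtgtctgcgt. This run was found at 2 places on the chromosomes, which are these peaks. The third longest run had 14 bases. The runs were looked for after the sequences had been seen.

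A wider list of axon guidance genes was set beside the 10. Of 76 names on a list of cues, receptors, adhesion molecules, cytoplasmic effectors and regulators, 73 matched protein-coding genes of the annotation. A peak was found at 37 of the 73 (50.7%), with 65 peaks in all, and at 27 of the 50 that are at least 5 kb long. The shares to set beside these are 24.4% of all protein-coding genes and 38.0% of those of at least 5 kb. No test was made, since the genes were listed with earlier results of these data known. At the genes with a peak the median of the strongest signal was 194.

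The strongest of these peaks lay mostly upstream of the gene. They were led by wve-1, a WAVE homologue (signal 917; 507 and 435 in replicates 1 and 2), where the start of R06C1.4 was nearer to the summit than that of wve-1. Next were sax-2, a Furry homologue (843; 438 and 418), and unc-76, of the FEZ family (836; 446 and 394), at 732 and 294 bp upstream of their starts. Then came unc-14 (474), gex-3, of the WAVE complex (466), spc-1, the alpha-spectrin gene (446), and the kinase gene unc-51 (419), all with summits upstream of the gene. The plexin gene plx-1 (362) had its peak 1512 bp upstream, and the kinase gene max-2 (349) and unc-33, a CRMP homologue (280), in introns. At unc-33 the summit fell inside a transfer RNA gene. In signal, the strongest peaks of unc-73 (415), unc-115 (390) and unc-40 (354) thus lay in the range of unc-51 to max-2. Of the 73 genes, 8 had no pooled candidate: ced-10, cfz-2, gpn-1, mab-20, unc-71, vang-1, zig-3 and zig-4. Among all genes of at least 5 kb, 74.5% had a candidate. The 73 also include shorter genes, among them ced-10, cfz-2, vang-1, zig-3 and zig-4. The same share over all protein-coding genes was not counted. In the replicate lists ced-10, unc-71, vang-1 and zig-4 had no region either, as was the case for unc-34. The semaphorin gene mab-20 had 3 in replicate 1, up to 45.4, and cfz-2, gpn-1 and zig-3 had weaker regions in a single replicate.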

How the data were processed

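Anti-GFP ChIP-seq regions from 2 biological replicates (1 group, replicate numbers from the labels) were analysed. The authors deposited region lists in narrowPeak layout. The 4 lists on ce11 were used (optimal IDR list, pooled candidates, 1 candidate list per replicate) and the 4 on ce10 were not, since no coordinate was converted. The column used as signal is the value deposited by the authors, (scale: not given in the sources used here). Deposited −log10 q values of the optimal list ran from 3.07 to 3.97, and at the 21 peaks of the 10 genes from 3.15 to 3.97. The accompanying deposited text derives each list from alignments and a further file that also underlies a control-normalized track; for aligner and caller, names and versions: not given in the sources used here. Read depth is unknown.

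Genes came from Ensembl release 115 (WBcel235), bases and the names of transfer RNA genes from the RefSeq copy of the same assembly; all 10 coding sequences began with ATG there and no region ran past a chromosome end. Coordinates are 1-based. A replicate matched a peak when its region covered the summit. Candidate density is per 10 kb of window (gene plus 2 kb). Position was classed from coding transcripts. Counts were made in Python 3.11.15 and tested on simulated data with planted summits and words. No test was run: with 1 group there is no contrast, and members are set beside the same count over all genes or peaks. The genes and lists were chosen with earlier results of these data known. All 10 genes and all their peaks are named, with neighbouring genes whose start is nearest a summit and the 10 other guidance genes with the strongest peaks; transfer RNA and noncoding RNA genes, the genes with no candidate and shared runs were named after values were seen. The shares among genes of at least 10 kb and from 10 to 20 kb were also added after values were seen. In the list of other genes, efn-1, enu-3 and sax-9 were not matched as symbols (efn-1 is listed as vab-2).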

Additional observations from a re-analysis of the deposited data

How the results depend on the processing

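Of 34 alternative values of the counts, shares and medians, 27 stayed close to the reported ones (counts within 1.5 times) and 7 moved. Counted as close, at the limit of 1.5 times, were 14 peaks in place of 21 and 6 genes in place of 9, both given below. With the 2780 strongest peaks alone, 5 of the 10 genes kept a peak (unc-73, unc-115, unc-40, sax-3, unc-5), with 7 peaks, and 21 of the other guidance genes had one, against 15.7% of all genes and 24.7% of those of at least 5 kb. Peaks among the strongest regions of each replicate, an alternative chosen after seeing the data, numbered 11, at 6 genes. The share of all genes under this rule was not counted. Without the 2 kb upstream, 9 of the 10 genes had a peak, with 14 peaks, and 20 of the other guidance genes had one. These counts stand beside 6.48% of all genes and 19.9% of the longer ones. From the outermost start alone, the median distance was 1842 bp. Genes of at least 5 kb had a peak in 38.0% of cases against 24.4% of all. With each replicate left out in turn, 8 to 9 of the 10 genes had a peak, with 20 to 21 peaks, and 36 to 42 of the other genes, against 24.1 to 24.6% of all genes and 39.1 to 39.4% of the longer ones; vab-1 was the gene without one when replicate 1 was left out. The cause of these shifts was not tested. Summits assigned to the nearest start within 2 kb left 7 genes, without unc-6, sax-3 and unc-34. For this rule, too, no share of all genes was counted. No paired analysis was possible because there is only 1 group. Read depth is unknown, and regions missing from a list are not shown to be absent.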
